A study of Homo sapiens with 8 samples.

Results

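Integrins are receptors that hold cells to the extracellular matrix, and laminins are basement membrane proteins that several of them bind. Their genes were chosen by symbol in the platform annotations, as 18 integrin alpha, 8 integrin beta and 12 laminin chain genes, 38 in all. Of these, 36 were measured on Illumina bead arrays (57 of 48803 probes, 36 of 18852 genes) and 35 on Affymetrix arrays (95 of 54675 probe sets, 35 of 19775 genes). LAMA3 was not analysed here, and ITGB6 was not named on the Affymetrix arrays because each of its probe sets is annotated to a second gene.

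Total RNA was profiled from human breast cancer cells in culture on 8 arrays, 2 for each of 4 groups, and each group's pair carries the title letters A and B. MDA-MB-231, an established triple-negative line labelled poorly metastatic, and LM2, a highly metastatic line derived from it, were measured on the Illumina arrays. LM2 control cells and LM2 cells with raised expression of miR-126, a microRNA, were measured on the Affymetrix arrays. All cells were grown in DMEM with serum, and no source used here gives the vector, its promoter or whether the cells were clones. Separate cultures for A and B are not stated, so p-values cover array-to-array spread alone, which may be technical. In RNA from whole cultures, fewer cells with a transcript and less of it per cell cannot be told apart.

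An integrin is a pair of one alpha and one beta chain, and the pair sets which ligand is bound. ITGB1 pairs with many alpha chains, whereas ITGB4 pairs with ITGA6 alone and forms the laminin receptor of hemidesmosomes, the junctions that anchor epithelial cells to the basement membrane. ITGB2 is the beta chain of leukocyte integrins and ITGAV pairs with several beta chains to bind ligands with an RGD motif. A laminin is a trimer of an alpha, a beta and a gamma chain. LAMA5 with LAMB1 or LAMB2 and LAMC1 makes the widespread laminins of adult epithelium, LAMA4 belongs to laminins of vessel walls and mesenchyme, and LAMB3 belongs to the laminin of epithelial anchoring.

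The mature forms of miR-126 define the second comparison and are shown for that reason, with the seed (bases 2 to 8) in capitals. They are RefSeq sequences from chr9:136670653-136670674 and chr9:136670616-136670636 of GRCh38.p14, plus strand. Levels of the mature forms were not analysed here.
hsa-miR-126-3p: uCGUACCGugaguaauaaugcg
hsa-miR-126-5p: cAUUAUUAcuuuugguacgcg

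The 250 bases before the RefSeq start of LAMA4 and LAMA5 are shown because these were the laminin genes with the largest differences between LM2 and MDA-MB-231. Both genes lie on the minus strand of GRCh38.p14, LAMA4 at chr6:112254568-112254817 and LAMA5 at chr20:62367313-62367562, and capitals mark matches to the letters GGGCGG, the GC box, on either strand.
LAMA4: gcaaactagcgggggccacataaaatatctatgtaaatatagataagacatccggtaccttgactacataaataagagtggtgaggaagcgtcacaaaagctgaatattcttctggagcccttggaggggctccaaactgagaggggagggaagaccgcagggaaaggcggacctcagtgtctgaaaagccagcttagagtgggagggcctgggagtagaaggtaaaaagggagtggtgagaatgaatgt
LAMA5: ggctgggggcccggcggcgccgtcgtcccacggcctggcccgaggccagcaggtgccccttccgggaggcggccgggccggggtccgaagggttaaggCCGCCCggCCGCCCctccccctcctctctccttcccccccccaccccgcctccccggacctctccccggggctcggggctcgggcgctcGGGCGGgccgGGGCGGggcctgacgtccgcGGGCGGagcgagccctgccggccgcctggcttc

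The LAMA5 window held 5 GC boxes and was 82.8% G and C, whereas the LAMA4 window held 0 and was 48.4% G and C. Of all 35116 RefSeq windows of this kind, 42.6% held a GC box on at least one strand, as did 17 of 33 members with a window. Neither gene's window held a match to TATAAA (a core promoter motif, in 10.7% of all windows), TGANTCA (AP-1, 6.57%), GGAATG (TEAD, 11.9%) or CACGTG (E-box, 6.34%) on either strand. No overlap between different motifs arose in these windows, and a match is a description of letters, not of binding.

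The cells carried the markers of their label in part. On the Illumina arrays VIM, CD44, AXL, EGFR and KRT18 had mean log2 levels from 8.29 to 15.05, above the upper quartile of all probes (7.16), while the hormone receptor genes ESR1 and PGR were below the level required for testing. ERBB2 (9.79 in MDA-MB-231 and 9.43 in LM2) and EPCAM (10.55 and 9.56) were above that quartile. The pan-leukocyte marker PTPRC was below the level for testing in both tables, but the monocyte marker CD14 stood at 9.37 and 9.46 on the Illumina arrays. Over all tested genes the arrays A and B of a group differed by a mean absolute 0.248 log2 in MDA-MB-231, 0.188 in LM2, 0.0871 in LM2 control and 0.284 in LM2 miR-126 cells.

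The first comparison asked which integrin and laminin transcripts differ between the metastatic derivative LM2 and MDA-MB-231. ITGB4 and LAMA4 were higher in LM2, by 2.62-fold and 2.08-fold, and no member was lower. LAMA5 had the next largest laminin difference, 1.92-fold, and did not pass. ITGB1 and ITGB5 stood lower on both LM2 arrays without passing. Of the 36 measured members, 22 were bright enough for testing (mean level over the table's probe median) and entered the limma fit of 12490 genes. The other 14 were not tested, so the counts below do not cover all members. At a Benjamini-Hochberg adjusted p under 0.05, 2 members were higher, where 0.841% of all tested genes were higher, and 0 were lower, where 1.47% of all were. At an unadjusted p under 0.05 the members numbered 4 higher and 0 lower, against 4.61% and 9.82% of all tested genes. The groups did not overlap for 7 members above and 2 below, 31.8% and 9.09% of those tested, against 15.9% and 28.1% of all. The median log2 change was 0.071 for the members and -0.041 for all genes tested.

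**Figure D1:**
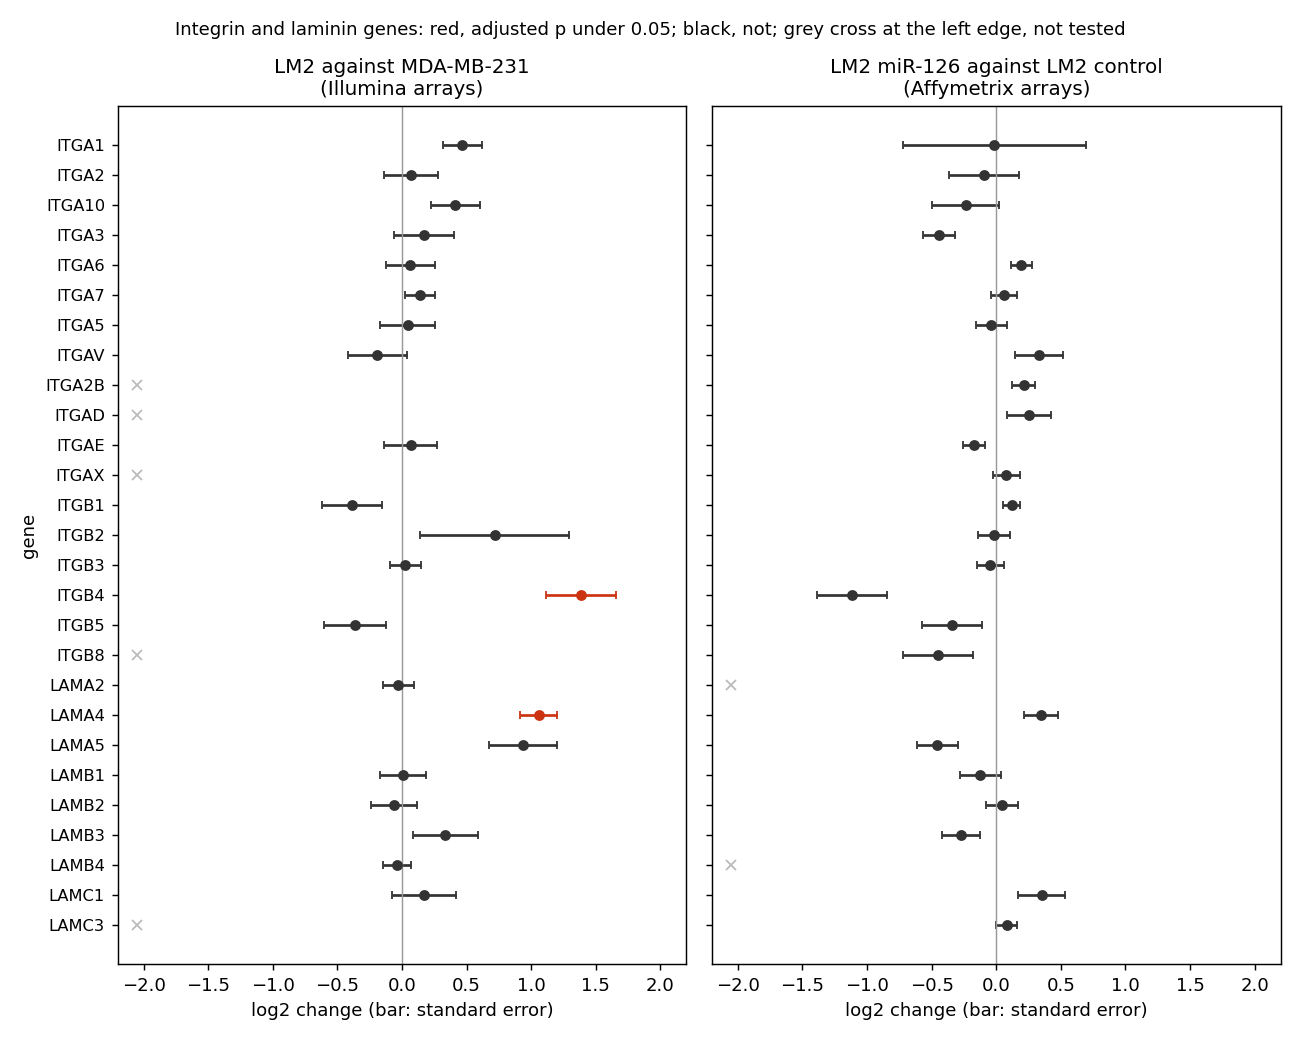
Log2 change of each integrin and laminin gene tested in either table, in LM2 against MDA-MB-231 (left) and in LM2 miR-126 against LM2 control (right), with points for the fitted change, bars for its standard error (2 arrays per group), red for an adjusted p under 0.05 and a grey cross for a gene not tested in that table. ITGB4 and LAMA4 passed an adjusted p of 0.05 on the left, and no gene passed on the right, where ITGB4 lay lowest at -1.12.

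The deposited Illumina intensity of ITGB4 was 537 and 297 in MDA-MB-231 (arrays A and B, the order used throughout) and 1066 and 1078 in LM2. Both LM2 arrays were above both MDA-MB-231 arrays, and they lay closer to each other than the MDA-MB-231 arrays did. On the log2(value + 16) scale its mean ± SD (n = 2 arrays each) was 8.70 ± 0.58 for MDA-MB-231 against 10.09 ± 0.011 for LM2, and the change was 1.39 (SE 0.27, 95% interval 0.79 to 1.99, limma adjusted p = 0.0263). A second ITGB4 probe read 362 and 273 against 620 and 673, a log2 difference of 1.003 (adjusted p = 0.0423 when each probe was tested on its own). The other 2 of its 4 probes read between 71.2 and 94.99 on every array, below the level for testing, with differences of -0.10 and -0.11. The ITGB4 call did not survive leaving out one LM2 array (adjusted p = 0.184 without array A and 0.131 without array B), with the change at 1.40 and 1.38. Leaving out an MDA-MB-231 array kept the call, at 1.80 without array A and 0.98 without array B. It was also lost with the mean of all 4 probes (0.55, adjusted p = 0.179) and without a variance trend (adjusted p = 0.0947).

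ITGA6, the one alpha partner of ITGB4, did not pass the test. The probe that stood for it read 181 and 156 in MDA-MB-231 and 212 and 147 in LM2, so that the groups overlapped. The log2 change was 0.064 with a 95% interval of -0.36 to 0.48 (limma adjusted p = 0.933), and it was -0.18 without LM2 array A. Its other 2 probes stood at 0.21 and 0.16. The other laminin-binding alpha chains, ITGA3 at 0.17 and ITGA7 at 0.14, also did not pass, and ITGA3 read 3748 and 4583 in MDA-MB-231 against 4726 and 4614 in LM2.

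LAMA4 read 95.5 and 91.7 in MDA-MB-231 and 227 and 198 in LM2. The MDA-MB-231 values were close to the table's median (94.39), and since these intensities still hold background, the fold is a low estimate. Its log2 level was 6.78 ± 0.035 and 7.83 ± 0.13 (SD, n = 2 each), a change of 1.06 (SE 0.14, limma adjusted p = 0.00332). LAMA4 kept its call under all 14 alternative settings, with changes from 0.65 to 1.18. The second LAMA4 probe, below the level for testing, read 72.8 and 80.2 against 96.4 and 90.5, a log2 difference of 0.24 whose groups did not overlap.

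LAMA5, measured by 1 probe, read 3392 and 4678 in MDA-MB-231 and 8756 and 6676 in LM2. Both LM2 arrays were above both MDA-MB-231 arrays, with the higher MDA-MB-231 value on array B and the higher LM2 value on array A. The log2 change was 0.94 (SE 0.26, 95% interval 0.36 to 1.51, limma adjusted p = 0.103). It passed with quantile normalization (0.98, adjusted p = 0.0409) and without MDA-MB-231 array B (1.17, adjusted p = 0.0299). The chains that can join LAMA5 had smaller changes, at 0.0072 for LAMB1, -0.063 for LAMB2 and 0.17 for LAMC1, with limma adjusted p from 0.830 to 0.992. LAMC1 read 2986 and 2159 against 2894 and 2829, so its groups overlapped. LAMB3 stood at 0.34 (adjusted p = 0.618), and its 2 other probes stood at -0.30 and 0.11, so its probes disagreed in sign.

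Among the collagen-binding alpha chains, ITGA1 read 89.0 and 108 in MDA-MB-231 and 166 and 121 in LM2, a log2 change of 0.47 (SE 0.15, limma adjusted p = 0.164). ITGA10 read 154 and 155 against 254 and 174, a change of 0.41 (adjusted p = 0.357). In both genes the groups did not overlap, and LM2 array A was the higher of the LM2 arrays. ITGA2 stood at 0.074 with a 95% interval of -0.39 to 0.53. Of the RGD-binding chains, the fibronectin receptor chain ITGA5 stood at 0.045 and ITGAV at -0.19, and ITGA8 and ITGA2B were below the level for testing. The log2 change of ITGAE, which pairs with ITGB7 on T cells lodged in epithelium, was 0.068.

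ITGB1 read 8254 and 7594 in MDA-MB-231 and 6564 and 5581 in LM2, a log2 change of -0.39 (95% interval -0.90 to 0.13, limma adjusted p = 0.507). ITGB5, which pairs with ITGAV, read 4605 and 4638 against 4009 and 3211, a change of -0.36 (adjusted p = 0.550). In both genes the LM2 arrays were below the MDA-MB-231 arrays. The other bright ITGB1 probe stood at -0.12, and of the 4 other ITGB5 probes, those at -0.57 and -0.14 had the same sign and those at 0.15 and 0.15 did not.

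ITGB2, described after its values were seen, read 197 and 1150 in MDA-MB-231 and 946 and 682 in LM2. The MDA-MB-231 arrays differed from each other by 2.45 log2, more than any group difference of a member, and a second probe (206 and 897 against 578 and 417) showed the same split. The change was 0.72 (adjusted p = 0.651) with both arrays, -0.51 without MDA-MB-231 array A, and 1.94 (adjusted p = 0.00246) without array B. Its leukocyte partners ITGAL, ITGAM, ITGAX and ITGAD were below the level for testing on these arrays. The monocyte marker CD14 had log2 levels of 9.20 and 9.54 on the pair of MDA-MB-231 arrays, A first, and 9.79 and 9.14 on the LM2 pair, and its part in the ITGB2 split was not tested.

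**Figure D2:**
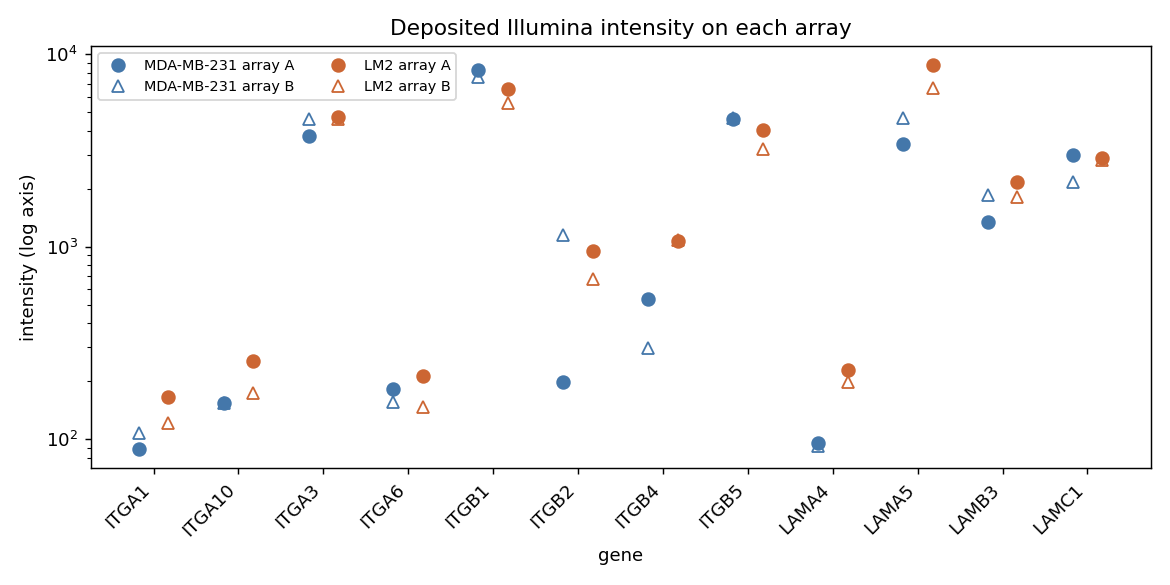
Deposited Illumina intensity (log axis) of 12 integrin and laminin genes on each MDA-MB-231 and LM2 array, with circles for arrays A and triangles for arrays B. The LM2 values of ITGB4, LAMA4 and LAMA5 lay above both MDA-MB-231 values, while ITGB2 split the MDA-MB-231 arrays at 197 and 1150.

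The 14 members below the level for testing on the Illumina arrays were ITGA11, ITGA8, ITGA2B, ITGA4, ITGA9, ITGAD, ITGAL, ITGAM, ITGAX, ITGB6, ITGB7, ITGB8, LAMA1 and LAMC3. Their log2 differences ranged from -0.18 to 0.19. Of the tested members not yet given, ITGB3, LAMA2 and LAMB4 stood at 0.027, -0.029 and -0.041.

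The second comparison asked which of these transcripts differ between LM2 cells with raised miR-126 and LM2 control cells. ITGB4 had the largest difference of the members, 2.17-fold lower on average with miR-126, and LAMA5 and ITGA3 also stood lower on both miR-126 arrays. LAMA4, ITGA6, ITGAV and LAMC1 stood higher on both. None of the 25 tested members, and none of 12923 tested genes (0% in either direction), passed a limma adjusted p of 0.05. At an unadjusted p under 0.05 the members numbered 1 higher and 3 lower, against 3.37% and 4.44% of all tested genes. After quantile normalization, the groups did not overlap for 7 members above and 5 below. These were 28.0% and 20.0% of those tested, against 21.4% and 19.0% of all. The deposited intensities given below precede that step, so their order can differ. The median log2 change was -0.019 for the members and 0.020 for all genes.

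ITGB4 had deposited Affymetrix intensities, relative to each array's median, of 27.3 and 26.4 on the LM2 control arrays and of 10.2 and 15.1 on the miR-126 arrays. Both miR-126 arrays were below the controls, array A further than array B. The log2 level was 4.75 ± 0.074 in control and 3.63 ± 0.57 in miR-126 cells (SD, n = 2 each), a change of -1.12 (SE 0.27, 95% interval -1.82 to -0.41, limma adjusted p = 0.484). A second probe set read 14.1 and 13.7 against 6.24 and 8.94 (log2 difference -0.87) and another 2.26 and 2.42 against 0.975 and 1.99 (-0.69). For these 3 of 5 probe sets both miR-126 arrays were below the controls, and the other 2, below the level for testing, stood at -0.042 and 0.16. ITGA6, its partner, read 32.9 and 33.8 in control and 39.3 and 37.1 in miR-126 cells, a change of 0.19 (95% interval -0.010 to 0.40, adjusted p = 0.643), but its other probe set stood at -0.017.

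LAMA5 read 28.4 and 27.0 in control and 18.95 and 21.7 in miR-126 cells, a log2 change of -0.46 (SE 0.16, 95% interval -0.87 to -0.043, limma adjusted p = 0.593). ITGA3, which pairs with ITGB1 as a laminin receptor, read 24.5 and 25.4 against 21.4 and 15.5, a change of -0.44 (95% interval -0.76 to -0.13, adjusted p = 0.512). For LAMA5 array A was the lower of the miR-126 arrays and for ITGA3 array B was. LAMB3 read 27.8 and 28.5 against 28.0 and 19.0 and stood at -0.27, a difference carried by array B.

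LAMA4 read 2.62 and 2.73 in control and 3.29 and 3.32 in miR-126 cells, a log2 change of 0.34 (95% interval 0.010 to 0.68, limma adjusted p = 0.629). The other 2 of its probe sets above the level for testing stood at -0.055 and 0.12, so the probe sets did not share a sign. LAMC1 read 25.8 and 25.6 against 29.1 and 37.4, a change of 0.35 (adjusted p = 0.697), with 0.32 for its second probe set. ITGAV read 16.5 and 17.1 against 19.2 and 23.7, a change of 0.33 (adjusted p = 0.717). ITGB1 read 87.9 and 89.9 against 94.6 and 97.9, a change of 0.12 with a 95% interval of -0.054 to 0.29. Its 3 bright probe sets lay between 0.12 and 0.15.

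**Figure D3:**
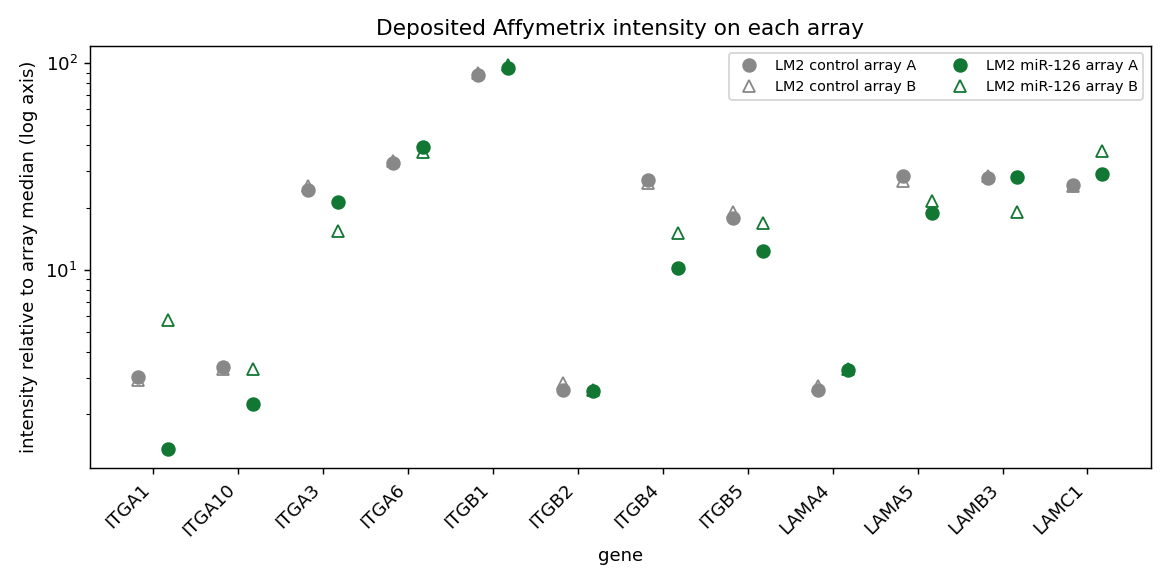
Deposited Affymetrix intensity relative to each array's median (log axis) of 12 integrin and laminin genes on each LM2 control and LM2 miR-126 array, with circles for arrays A and triangles for arrays B. The control arrays nearly coincide, the miR-126 arrays lie below them for ITGB4, LAMA5 and ITGA3, and for ITGA1 they lie on opposite sides at 1.36 and 5.71.

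Several members split the miR-126 arrays, and these were described after their values were seen. ITGA1 read 3.03 and 2.94 in control but 1.36 and 5.71 on miR-126 arrays A and B, below and above both controls, and its change of -0.015 (95% interval -1.83 to 1.80) is a mean of opposite differences. A second ITGA1 probe set showed the same split at 0.674 and 0.793 against 0.392 and 2.32. ITGA2 read 24.4 and 27.4 against 19.9 and 30.2 in the same order. ITGB8, a TGF-beta activating chain that pairs with ITGAV, read 2.55 and 2.91 against 1.52 and 2.42, and ITGB5 read 17.8 and 19.0 against 12.4 and 16.8, both lowest on array A. For these ITGB8 and ITGB5 probe sets the deposited miR-126 values lay below both controls, but the groups overlapped after quantile normalization. In other ITGB5 probe sets above the level for testing, array B lay above both controls (5.36 against 5.03 and 5.19, and 3.25 against 2.79 and 2.94). A dimmer ITGB5 probe set, below that level, read 0.688 and 0.799 in control against 0.459 and 0.537. The miR-126 arrays were also unlike in the marker CD14, at log2 levels of -0.29 and 1.66 against 0.68 and 0.80 in control. The leukocyte markers LCP2 (-0.61 and -0.63) and PTPRC (-1.90 and -2.02), both below the level for testing, did not share this split. CD3E stood at 0.87 and 1.29 against 1.01 and 0.80 in control. The split was not particular to CD14. The integrin ligands VCAM1 (1.26 and 3.26 against 1.79 and 1.85) and TGFBI (4.40 and 5.72 against 4.53 and 4.49) had the same order. FRAS1, a basement membrane gene, had the opposite order (2.57 and 1.44 against 1.94 and 1.86). The part of CD14 in these splits was not tested.

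With 1 miR-126 array left out, the remaining one is assumed to vary as little as the control arrays, which raises all counts. Without array A, 9 members were higher and 5 lower, where 17.9% and 18% of all tested genes were. Without array B, 1 member was higher and 10 lower, where 19.8% and 17.3% of all were. ITGB4, LAMA5 and ITGA3 were lower in both settings, with changes of -0.72 and -1.50 for ITGB4, -0.26 and -0.65 for LAMA5, and -0.58 and -0.31 for ITGA3. ITGAE also stayed lower, by less, at -0.19 to -0.16 over all alternatives. ITGA6 was higher in both, at 0.21 and 0.17, and ITGA1 turned from 1.08 without array A to -1.14 without array B.

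**Figure D4:**
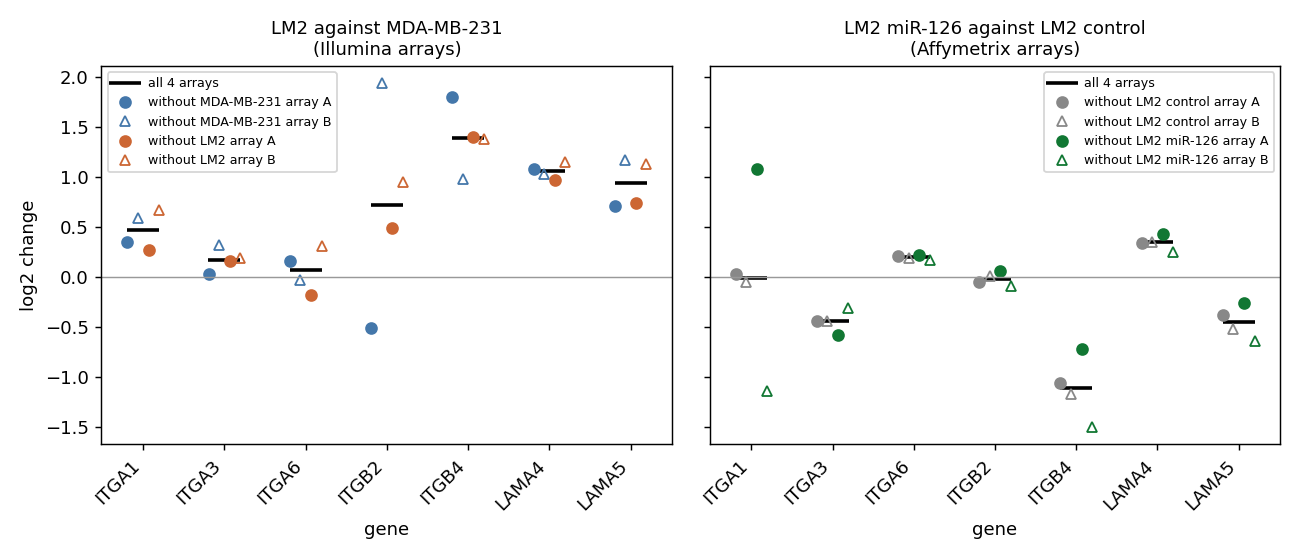
Log2 change of 7 integrin and laminin genes with all 4 arrays (black bars) and with each array left out in turn (symbols), for LM2 against MDA-MB-231 (left) and LM2 miR-126 against LM2 control (right). ITGB2 (-0.51 to 1.94) and ITGA6 (-0.18 to 0.31) on the left and ITGA1 (-1.14 to 1.08) and ITGB2 (-0.096 to 0.054) on the right change sign, while ITGB4, LAMA4 and LAMA5 keep theirs in both panels.

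The other tested members in this comparison had log2 changes between -0.24 for ITGA10 and 0.25 for ITGAD, the latter on leukocytes. ITGB2, which split the MDA-MB-231 arrays, read 2.62 and 2.82 in control and 2.61 and 2.62 with miR-126, and stood at -0.019. The 10 members below the level for testing were ITGA11, ITGA8, ITGA4, ITGA9, ITGAL, ITGAM, ITGB7, LAMA1, LAMA2 and LAMB4, with log2 differences from -0.051 to 0.23.

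The comparisons share no array, and their folds come from different platforms, so the difference between them was not tested. Side by side, ITGB4 stood at 1.39 in LM2 against MDA-MB-231 and at -1.12 with miR-126, and LAMA5 at 0.94 and -0.46. LAMA4 stood at 1.06 and 0.34, with the same sign in both. Of 20 members tested in both tables, 15 had changes of opposite sign, 12 of them positive in LM2 and negative with miR-126, which is 75% against 52.3% of the 9773 genes tested in both. Of these 15, 9 changed sign under at least one alternative setting in one or both comparisons, ITGA1 (-0.015 with miR-126) among them. The other 6, ITGA3, ITGAE, ITGB1, ITGB4, LAMA5 and LAMB3, kept their signs under the alternatives run. ITGAV (-0.19 and 0.33), ITGB1 (-0.39 and 0.12) and LAMB2 (-0.063 and 0.044) had the opposite order of signs, and none of these values passed. Of these 15 members, ITGB4 in LM2 against MDA-MB-231 gave the one change that passed.

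**Figure D5:**
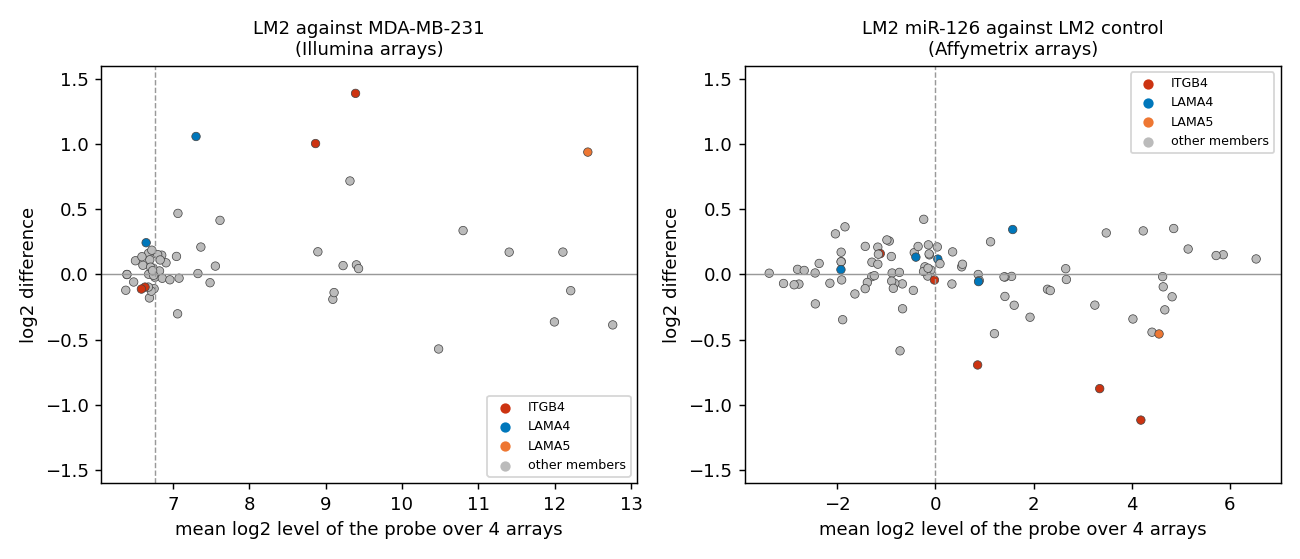
Log2 difference of every probe of the integrin and laminin genes against its mean log2 level over 4 arrays, in LM2 against MDA-MB-231 (left, 57 probes) and LM2 miR-126 against LM2 control (right, 95 probe sets), with the dashed line at the level required for testing. The ITGB4 probes right of that line lie at 1.39 and 1.003 on the left and at -1.12, -0.87 and -0.69 on the right, while its probes left of it lie between -0.11 and 0.16.

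Genes that act with integrins and laminins were described from lists chosen by function. Of 20 tested integrin ligands, 3 were higher and 2 lower in LM2 than in MDA-MB-231, where 0.841% and 1.47% of all tested genes were, with a list median of -0.082 against -0.041 for all genes. COL6A1 (2.09) and COL1A1 (1.94), collagen chains, were higher, and the matrix glycoprotein THBS1 (-1.57) and the cadherin CDH1 (-0.54), the ligand of ITGAE, were lower. No gene passed among 27 tested genes of the adhesome, the proteins that link integrins to actin, among 11 basement membrane partners of laminin, or among 17 other laminin receptors and membrane partners. With limma, an unadjusted p under 0.05 was reached by 5, 3 and 4 of them, where 4.61% of all tested genes reached it with a higher and 9.82% with a lower level. Their medians were -0.074, -0.0043 and -0.00094.

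With miR-126 no gene of these lists passed with limma. At an unadjusted p under 0.05 there were 6 of 28 adhesome genes, 5 of them lower, 6 of 13 basement membrane partners, 4 of them higher, 4 of 20 ligands, 3 of them higher, and 3 of 18 other receptors and partners, 2 of them lower. Of all tested genes, 3.37% reached that p with a higher and 4.44% with a lower level. The medians were -0.15, 0.11, 0.13 and -0.027, against 0.020 for all genes. Chosen after their values were seen, the basement membrane collagens COL4A1 and COL4A2 stood at 0.65 and 0.50, the integrin-linked kinase ILK at -0.38 and the tetraspanin CD9 at -0.67, with adjusted p from 0.484 to 0.488. Other basement membrane partners, COL15A1 (-0.51) and HSPG2 (-0.45), stood lower with miR-126. In LM2 against MDA-MB-231, COL4A1 stood at -0.55 (limma adjusted p = 0.178) and CD9 at 0.46 (adjusted p = 0.343). COL4A2 and ILK are not given for that comparison, and a reversal between the comparisons was not tested.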

How the data were processed

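Processed intensity values came as an Illumina and an Affymetrix table deposited by the authors, and no source used here gives their software or normalization. On the linear Illumina scale all arrays shared a median of 94.39 and no value was under 43.21, which means background remained and dim genes' folds are low estimates. Affymetrix intensities were scaled to a median of 1 on each array. No detection p-values were used, so no level was called absent. Probes were named by the platform annotation, updated by Entrez identifier (28059 of 28098 Illumina and 41043 of 41091 Affymetrix probes with 1 gene). The probe of highest mean stood for a gene, and a gene was tested if that mean exceeded the table's probe median (12490 and 12923 genes). Illumina values were taken as log2(value + 16), and Affymetrix values as log2 after quantile normalization, because quartiles differed by 0.165 log2. Each table was fitted on its own in limma 3.58.1 under R 4.3.3 (eBayes with a variance trend), two-sided, Benjamini-Hochberg adjusted over all tested genes. An exact permutation test of 2 against 2 arrays could not reach 0.05. The steps were tested on simulated data, and figures were drawn with matplotlib 3.10.9. Members, lists and alternatives were chosen with earlier results of these data known. Array values are given for members past the threshold and the 5 of smallest p in each comparison, and up to 4 called genes per list are named; array values of other members were added after they were seen. The number of arrays limits the precision.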

Additional observations from a re-analysis of the deposited data

How the results depend on the processing

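Each comparison was rerun under 14 alternatives: scaling, pseudocount, filter, probe rule, variance prior, the replicate letter as a block, and each array left out. In LM2 against MDA-MB-231, 289 genes were called. The count was 184 when each gene's probes were averaged, 107 without a variance trend, 620 with the replicate block and 59 to 572 with an array left out. Members called higher were 2, with 1 under the mean of probes, 1 without a trend, and 1 to 4 with an array left out. With miR-126 the count of 0 genes became 51 with the replicate block, where ITGB4 was the 1 member lower (adjusted p = 0.0241), and 0 to 4785 with an array left out, with 0 to 9 members higher and 0 to 10 lower. The letters are not said to mark a shared batch. Differences between A and B correlated over genes by 0.128 and 0.0598 between the groups. Whether arrays with the same letter shared a batch was not tested. Counts in the other settings stayed within 1.5 times.

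Of 303 and 334 values of members under alternatives, 16 and 13 changed sign, all of members that had not passed. LAMB1 was at -0.011 with the mean of probes in the first comparison. ITGA1 was at 0.018, 0.069 and 0.21 with miR-126 at pseudocounts of 0.25 and 1 and with the mean of probes. With an array left out, the first comparison gave -0.24 to 0.25 for LAMB1, -0.51 to 1.94 for ITGB2, -0.40 to 0.018 for ITGAV, -0.26 to 0.13 for LAMB2, -0.099 to 0.018 for LAMB4, -0.17 to 0.12 for LAMA2, -0.062 to 0.40 for LAMC1, -0.051 to 0.14 for ITGA5, -0.18 to 0.31 for ITGA6 and -0.14 to 0.19 for ITGB3. With miR-126 it gave -1.14 to 1.08 for ITGA1, -0.096 to 0.054 for ITGB2, -0.48 to 0.30 for ITGA2, -0.28 to 0.031 for LAMB1, -0.61 to 0.12 for ITGA10, -0.084 to 0.0063 for ITGA5, -0.033 to 0.12 for LAMB2 and -0.0019 to 0.16 for ITGAX. Levels of dim genes hold background, which limits their folds.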
